A study of Mus musculus with 4 samples.

Results

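Claudins and the proteins that work beside them at epithelial junctions were examined in insulin-positive cells made from mouse gallbladder. The members are 65 of the 20377 genes in the deposited table, taken by a rule on gene symbols that uses no measured value. They comprise 23 claudins, 4 zonula occludens and cingulin scaffolds (Tjp1, Tjp3 and Cgn among them), 4 MARVEL proteins (Ocln, Marveld1 to Marveld3), 4 immunoglobulin-like adhesion proteins (F11r, Jam2, Jam3, Cxadr), 5 genes of the Crumbs complex (Crb1 to Crb3, Inadl, Mpdz), 5 Par genes, 19 connexins and villin (Vil1). Connexins form gap junctions and villin bundles actin in microvilli, so these 20 genes are neighbours of the tight junction, not parts of it.

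The cells were primary gallbladder cells of 8-week-old mice on a C57BL/6 background that carry the MIP-GFP reporter, the transgene B6.Cg-Tg(Ins1-EGFP)1Hara/J, in which an Ins1 promoter drives green fluorescent protein. They were expanded in culture, reprogrammed over 10 days with Pdx1, Ngn3, Mafa and PAX6, 4 transcription factors, together with compounds that the labels do not name, and reporter-positive cells were sorted for RNA sequencing. All samples form 1 group, rGBC2, with 4 libraries. The labels do not say whether these came from separate animals or cultures, so p-values measure only the spread between these libraries, part of which may be technical.

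Tight junctions seal the space between epithelial cells near their apical side. Claudins are the membrane proteins that form the strands and set which ions pass, the MARVEL proteins accompany them, and the zonula occludens scaffolds tie them to actin. The Crumbs and Par complexes place this belt at the border between the apical and lateral membrane. The gallbladder epithelium needs such a seal to hold and concentrate bile, whereas beta cells sit in islets and are coupled to each other mainly through gap junctions of the Gjd2 connexin.

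The estimated depth was lowest in replicate 2 and highest in replicate 4, and 3 reads on a transcript of 1 kilobase equal 0.136 and 0.0915 RPKM there. Replicates 3 and 4 resembled each other far more than any other pair, with a chi-square of 13.4 per degree of freedom between their estimated reads against 139 to 343 for the other 5 pairs. Their difference exceeded counting noise, which repeat preparations of 1 RNA can also do, so it does not show that they are separate cultures. They were kept as separate libraries as labelled. The total numbers of members above and below 1 RPKM were repeated with both averaged into 1, but the counts in the partner lists were not. Replicates 1 and 2 held the Y-linked transcript Eif2s3y (48.5 and 44.7 RPKM) and replicates 3 and 4 were listed at 0 for it. The library pairs thus differed in a Y-linked transcript. That difference cannot be told apart from any other between the pairs, including those of Gjb1 and Cldn2 on chromosome X. Of 7 markers of simple biliary epithelium, 6 had a mean of at least 1 RPKM, and Sox9 was at 0.843 RPKM. All 5 beta-cell markers reached that level, and the promoter of 1 of them, Ins1, drives the reporter used for sorting. Among all 16919 genes not at 0 in every library, 11967 reached it. The 4 leukocyte markers summed to 0.06 to 0.27 RPKM. In bulk RNA, fewer cells of a type and less RNA per cell cannot be told apart.

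Junction genes divided into an abundant few and a long tail. In limma's moderated test of each level against 1 RPKM (reads scaled by transcript length and by the mapped reads of the library), with Benjamini-Hochberg adjustment over all 16919 genes not at 0 in every library, 27 of the 65 members lay above 1 RPKM and 25 below. A further 9 passed in neither direction and 4 (Cldn5, Cldn18, Cldn24, Gjd4) were listed at 0 throughout. Among all genes tested 65.0% lay above 1 RPKM and 26.1% below, against 44.3% and 41.0% of the 61 members tested. The median of the members tested was 0.98 RPKM, against 7.38 RPKM for all genes tested. By family, 8 of 23 claudins and 1 of 19 connexins lay above 1 RPKM, whereas all 4 ZO scaffolds, all 4 MARVEL proteins and villin did, along with 3 of 5 Crumbs genes, 3 of 5 Par genes and 3 of 4 adhesion proteins. 4 of the 25 calls below 1 RPKM and 1 of the 27 above it (Jam3) were lost under at least 1 alternative in which the gene was still tested, as given with those genes.

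Claudins were led by Cldn1, a sealing claudin of many epithelia. Cldn1, on chromosome 16 (mm9, 26356731 to 26371925), stood at 185, 155, 126 and 124 RPKM in replicates 1 to 4. Both of the first 2 libraries exceeded the last 2, and Cldn1 took 32.6% to 41.8% of the summed claudin RPKM. Its mean of 147 ± 28.5 RPKM (SD, n = 4) was above 1 RPKM (limma, adjusted p = 2.53e-07).

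Cldn7, a claudin of simple epithelia that also lies along the lateral membrane, ranked next. On chromosome 11 (69778280 to 69781388) it stood at 66.7, 74.6, 89.9 and 96.5 RPKM, with the opposite order of libraries to Cldn1, and its share of the claudin sum ran from 15.1% in replicate 1 to 25.3% in replicate 4. Cldn3, a sealing claudin of gut and bile duct, was at 55.7, 55.2, 55.1 and 59.9 RPKM. This was the narrowest spread of the abundant claudins, with the highest library 1.09 times the lowest.

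Cldn4, which restricts sodium passage in tight epithelia, lies 39278 bases from Cldn3 on chromosome 5 (135420992 to 135422804). It was at 41.1, 25.5, 9.23 and 9.52 RPKM. The highest library had 4.45 times the level of the lowest, and replicates 1 and 2 did not overlap with replicates 3 and 4, although its neighbour Cldn3 hardly varied. Cldn13, on the other side of Cldn4 at a gap of 29591 bases, was at 0.04 RPKM in replicate 1 and listed at 0 elsewhere.

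Cldn4 was below Cldn7 in 4 of 4 libraries, at 0.616, 0.341, 0.103 and 0.0986 of its RPKM in replicates 1 to 4. In log2(RPKM + 1) Cldn4 minus Cldn7 averaged -2.14 ± 1.25 (SD, n = 4; exact two-sided sign-flip permutation test, adjusted p = 0.156 over 10 pairs). With 4 libraries this test cannot reach 0.05 for any pair, and the direction in each library carries these comparisons.

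The other claudins above 1 RPKM were Cldn12 with a mean of 47.4 RPKM, Cldn8 with a mean of 24.8 RPKM, Cldn23 with 8.09 to 15.4 RPKM and Cldn2, the cation- and water-permeable claudin of leaky epithelia, with a mean of 8.02 RPKM. Cldn11, the claudin of myelin and of the testis barrier, had a mean of 0.93 RPKM and Cldn20 one of 0.84 RPKM, and neither passed in either direction. Of the myelinating glia markers, Mag and Mog lay below 1 RPKM (means of 0.287 and 0.0725 RPKM), whereas Mbp had a mean of 96.1 RPKM. The part of such cells in the Cldn11 level was not tested.

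10 of the 20 claudins tested lay below 1 RPKM (50.0%, against 26.1% of all genes tested). Of the 22 with a matched transcript length, 8 had under 3 estimated reads in every library. Among these 8 were the endothelial claudin Cldn5 and the stomach and lung claudin Cldn18. The 7 endothelial markers summed to 1.04 to 1.32 RPKM, most of it from Esam (0.62 to 1.0 RPKM), with Cdh5 at 0 in 3 libraries. Cldn9, at a mean of 0.76 RPKM, lost its call under 7 alternatives, those without replicate 1, 3 or 4 among them (limma, adjusted p = 0.0512 to 0.18). Cldn10, at 0, 1.18, 0.22 and 0.25 RPKM, lost it under 6, again without replicate 1, 3 or 4 among them (limma, adjusted p = 0.0534 to 0.103).

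**Figure D1:**
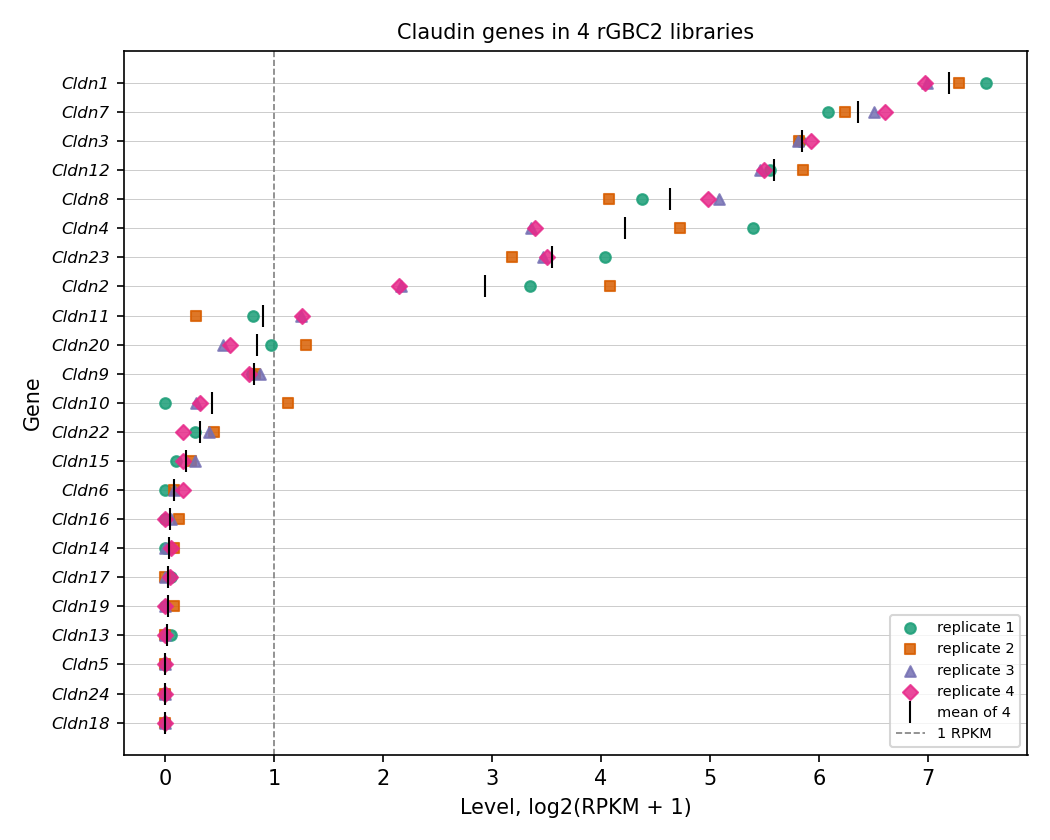
Level of the 23 claudin genes as log2(RPKM + 1) in each of 4 libraries (coloured symbols), with the mean of 4 as a black bar and 1 RPKM as a dashed line. Cldn1 lies furthest right, the points of Cldn3 nearly coincide, and those of Cldn4 and Cldn2 spread widely with replicates 3 and 4 lowest.

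The scaffolds beneath the strands were led by Tjp3, the zonula occludens protein restricted to epithelia. Tjp3 was at 55.2, 44.6, 86.6 and 81.0 RPKM, higher in replicates 3 and 4. Tjp1, the broadly expressed zonula occludens protein, was at 25.9, 29.7, 14.5 and 12.0 RPKM, lower in replicates 3 and 4. These paralogs thus differed in opposite directions between the same libraries.

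Tjp1 lay below Tjp3 in 4 of 4 libraries, with -1.70 ± 1.04 as the mean difference in log2(RPKM + 1) (SD, n = 4; exact permutation, adjusted p = 0.156). Its ratio to Tjp3 was 0.47, 0.667, 0.167 and 0.148 in replicates 1 to 4. Cgn, cingulin, which links the scaffolds to myosin, was steadier at 48.5, 38.0, 50.8 and 51.3 RPKM.

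MARVEL proteins were present in full. Ocln, occludin, which lines the strands between cell pairs, was at 41.0, 43.6, 34.2 and 36.6 RPKM. Marveld2, tricellulin, which seals the points where cells meet in threes, lies 43457 bases from Ocln on chromosome 13 and was at 17.5, 19.1, 15.2 and 16.9 RPKM. Marveld3, which also joins the strands, was at 12.5, 10.6, 8.84 and 9.25 RPKM.

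Ocln exceeded Marveld2 in 4 of 4 libraries at a nearly fixed ratio of 2.34, 2.28, 2.25 and 2.16. The mean difference of 1.13 ± 0.05 in log2(RPKM + 1) had the smallest SD of the 10 pairs (SD, n = 4; exact permutation, adjusted p = 0.156). Marveld1 had a mean of 6.05 RPKM and was above 1 RPKM (limma, adjusted p = 0.00194).

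Of the immunoglobulin-like adhesion proteins F11r, the junctional adhesion molecule of epithelia, was by far the most abundant. On chromosome 1 (173367691 to 173394724) it stood at 115, 172, 150 and 163 RPKM, and it made up 71.2% to 85.7% of the family's summed RPKM. Cxadr, the coxsackievirus and adenovirus receptor, was at 43.3, 47.9, 23.3 and 20.3 RPKM.

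Jam2, best known from endothelium, was at 1.83, 0.48, 3.90 and 3.59 RPKM and was called neither above nor below (limma, adjusted p = 0.106), but without replicate 2 it lay above 1 RPKM (adjusted p = 0.0143). Jam3 had a mean of 2.26 RPKM and its place above 1 RPKM (limma, adjusted p = 0.0461) was lost under 7 alternatives, those without replicate 2, 3 or 4 among them (adjusted p = 0.0551 to 0.139). F11r exceeded Jam2 in 4 of 4 libraries, by 5.58 ± 0.87 in log2(RPKM + 1) (SD, n = 4; exact permutation, adjusted p = 0.156).

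Of the polarity genes, Crb3, the Crumbs protein of epithelia, was at 35.9, 43.5, 42.9 and 45.6 RPKM. Crb2, a Crumbs protein of retina, kidney and embryo, was at 0.05, 0.20, 0.05 and 0.10 RPKM and lay below 1 RPKM (limma, adjusted p = 4.19e-06), as did Crb1 of the retina, with a mean of 0.39 RPKM. Crb3 exceeded Crb2 in 4 of 4 libraries, by 5.28 ± 0.13 in log2(RPKM + 1) (SD, n = 4, exact permutation, adjusted p = 0.156). The ratio in RPKM was 717.6, 217.4, 858.6 and 456.4 in replicates 1 to 4, so the small SD partly reflects the added 1 RPKM.

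Inadl, the multi-PDZ scaffold PATJ of the Crumbs complex, was at 34.1, 30.9, 38.0 and 36.7 RPKM. Its relative Mpdz was at 9.53, 12.6, 6.97 and 5.16 RPKM. The summed RPKM of the Crumbs complex, 86.0 ± 3.69 (SD, n = 4), had the smallest SD of the families as deposited, but after median ratio scaling its SD was 9.02 and that of the claudin sum, at 3.06, was smaller.

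Pard3, the core scaffold of the Par complex on chromosome 8 (129823511 to 129957044), was the most even member above 1 RPKM in the deposited values, at 79.4, 82.7, 84.2 and 79.7 RPKM, with a highest library 1.06 times the lowest. After median ratio scaling it was higher in both of replicates 3 and 4. Its paralog Pard3b was at 0.36, 0.50, 0.16 and 0.19 RPKM and lay below 1 RPKM (limma, adjusted p = 0.000296). Pard3 exceeded it by 5.99 ± 0.18 in log2(RPKM + 1) in 4 of 4 libraries (SD, n = 4, exact permutation, adjusted p = 0.156). In RPKM the ratio was less even, at 220.6, 165.4, 526.2 and 419.2 in replicates 1 to 4.

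Par6 proteins couple Pard3 to atypical protein kinase C and Cdc42. Pard6b was at 61.6, 28.8, 27.8 and 27.7 RPKM, with replicate 1 apart from the other 3. Pard6a was at 7.55, 8.41, 11.4 and 13.4 RPKM. Pard6g was at 1.17, 0.46, 1.08 and 1.21 RPKM and was called neither above nor below (limma, adjusted p = 0.802), and Pard6b exceeded it in 4 of 4 libraries by 4.17 ± 0.54 in log2(RPKM + 1) (SD, n = 4; exact permutation, adjusted p = 0.156).

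Vil1, villin, stood at 38.5, 34.3, 23.4 and 24.6 RPKM, lower in replicates 3 and 4. Of 11 genes listed as its microvillus and brush border partners, 8 lay above 1 RPKM, near the 65.0% of all genes tested, led by Ezr, the membrane-to-actin linker ezrin, with 152 ± 7.10 RPKM, Slc9a3r1, an ezrin-binding scaffold, with 74.2 ± 14.0 RPKM and Cdhr2, a microvillar protocadherin, with 20.4 ± 7.25 RPKM (SD, n = 4).

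**Figure D2:**
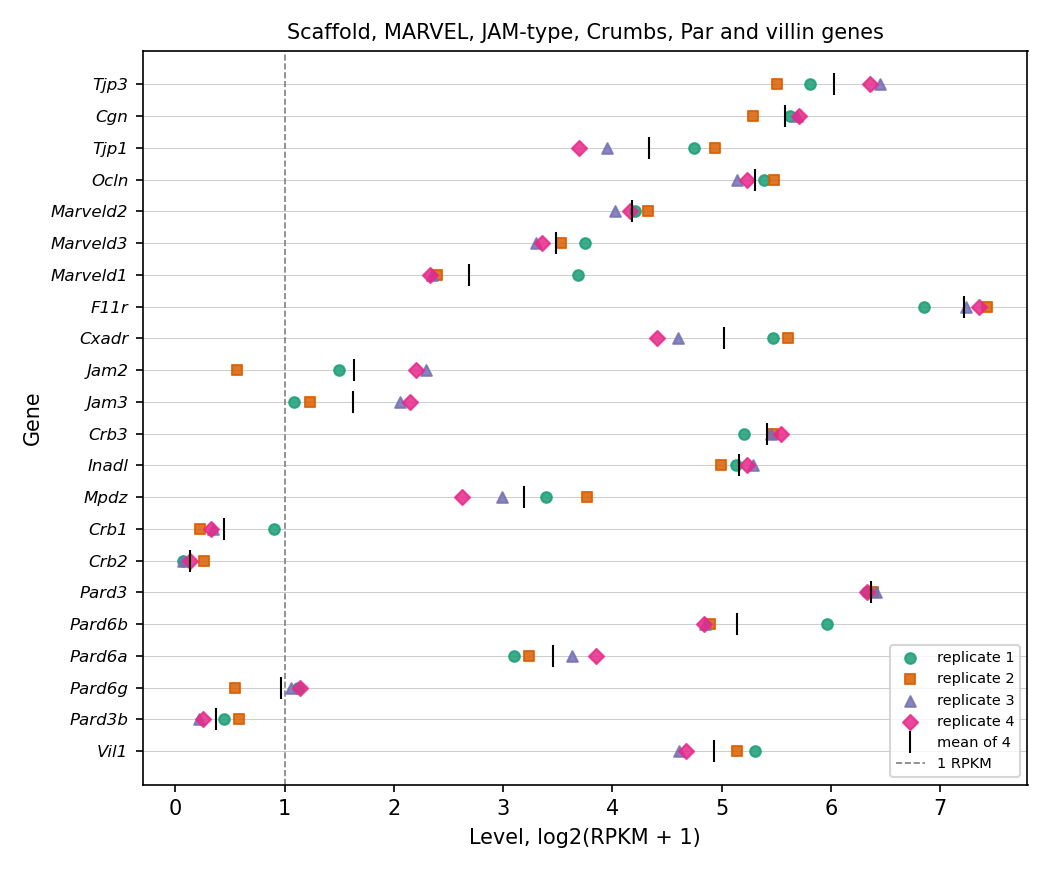
Level of scaffold, MARVEL, adhesion, Crumbs, Par and villin genes as log2(RPKM + 1) in each of 4 libraries (coloured symbols), with the mean of 4 as a black bar and 1 RPKM as a dashed line. The 4 points of Pard3 lie on top of each other, Tjp3 and Tjp1 spread in opposite orders, and Crb1, Crb2 and Pard3b lie left of the line.

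Connexins were dominated by a single gene. Gjb1, a connexin of hepatocytes, exocrine glands and myelinating Schwann cells, was at 156, 156, 392 and 399 RPKM on chromosome X (98572675 to 98580963). It took 92.2% to 98.5% of the summed connexin RPKM, and its mean of 276 ± 138 RPKM (SD, n = 4) was the highest of all members and ranked 234th of the 20377 genes. Replicates 3 and 4 did not overlap with replicates 1 and 2. Of the 5 hepatocyte markers, Serpina1a was listed at 0 throughout and Apoa1 and Cps1 lay below 1 RPKM, whereas Ttr was at 17.5, 15.2, 19.0 and 20.3 RPKM and Alb ran from 2.63 RPKM in replicate 1 to 35.2 RPKM in replicate 4. Summed, the 5 came to 20.7 RPKM in replicate 1 and 55.7 RPKM in replicate 4, and the part of such cells in the Gjb1 level was not tested.

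Gjd2, the gap junction protein of beta cells and neurons, was low. On chromosome 2 (113835336 to 113839355) it stood at 0.21, 0.63, 3.57 and 3.74 RPKM, or an estimated 14.3, 39.9, 248.7 and 353.2 reads. Replicates 3 and 4 were both above 1 RPKM and replicates 1 and 2 both below it, so that the highest library had 17.8 times the lowest and the gene passed in neither direction (limma, adjusted p = 0.415). Of the 5 beta-cell markers, Ins1, whose promoter drives the reporter, stood at 107, 222, 481 and 523 RPKM. Ins2 and Abcc8 were likewise higher in both of replicates 3 and 4, Iapp overlapped between the library pairs and Slc2a2 was lower there. Sst, the hormone of delta cells, was at 664, 460, 5573 and 6409 RPKM, and the part of these differences in the Gjd2 level was not tested.

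Gjd2 lay below Gjb1 in 4 of 4 libraries, at 0.00135, 0.00403, 0.0091 and 0.00938 of its RPKM in replicates 1 to 4, and the gap averaged -6.61 ± 0.29 in log2(RPKM + 1) (SD, n = 4; exact permutation, adjusted p = 0.156). Gja1, the connexin of fibroblasts, muscle and many epithelia, was at 2.08, 5.10, 0.23 and 0.33 RPKM, higher in the library pair where Gjd2 was lower, and was called neither above nor below (limma, adjusted p = 0.607). The ratio of Gjd2 to Gja1 was 0.101, 0.124, 15.5 and 11.3 in replicates 1 to 4. Averaged, the gap was 0.12 ± 2.03 in log2(RPKM + 1), well within the spread (SD, n = 4; exact permutation p = 1.0), and its sign turned without replicate 3 (-0.47) or 4 (-0.45).

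Mesenchymal markers summed to 4.64, 1.66, 1.39 and 1.44 RPKM over 6 genes in replicates 1 to 4, led by Pdgfra (3.12, 1.06, 0.92 and 0.87 RPKM) and Col1a1 (1.34, 0.54, 0.47 and 0.47 RPKM). Both were highest in replicate 1, with replicate 2 only slightly above replicates 3 and 4. Gja1 was highest in replicate 2. Dcn and Pdgfrb were at 0.1 RPKM or less in every library. Lum was at 0 throughout and Col3a1 at 0 in 3 libraries, and the part of such cells in the Gja1 level was not tested. 12 of the 18 connexins tested lay below 1 RPKM (66.7%, against 26.1% of all genes tested). They included the arterial connexins Gja4 and Gja5, with means of 0.0575 and 0.0425 RPKM. Gjb2, at a mean of 0.633 RPKM, lost its call under 8 alternatives, those without replicate 1, 3 or 4 among them (limma, adjusted p = 0.0566 to 0.166), and Gja10, at 0.542 RPKM, without replicate 1 or 2 (0.0505 and 0.0775). Gja3, at a mean of 0.635 RPKM, passed in neither direction but lay below 1 RPKM without replicate 1 (limma, adjusted p = 0.0169). Of the pannexins, which form channels of similar shape, Panx1 stood at 15.6 ± 2.02 RPKM, Panx2 had a mean of 0.703 RPKM and Panx3 was listed at 0.

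**Figure D3:**
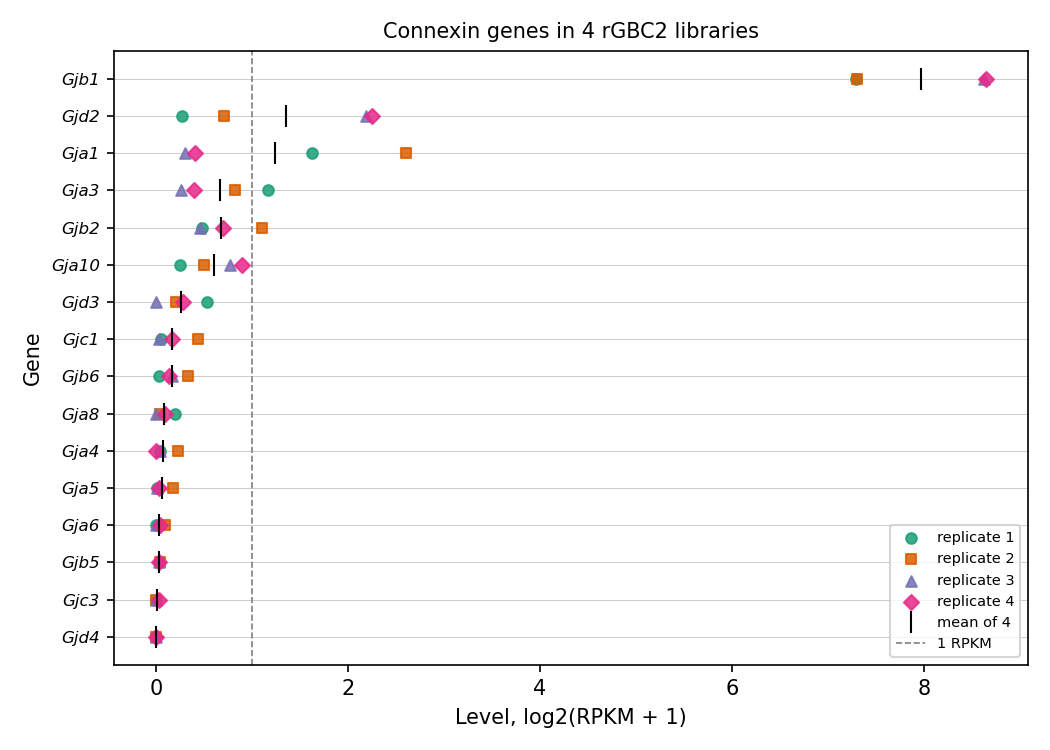
Level of 16 connexin genes as log2(RPKM + 1) in each of 4 libraries (coloured symbols), with the mean of 4 as a black bar and 1 RPKM as a dashed line. Gjb1 stands alone at the right, and Gjd2 and Gja1 straddle the line with the library pairs in opposite order.

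Summed by family, claudins reached 402 ± 30.9 RPKM, connexins 284 ± 137, adhesion proteins 188 ± 25.4, ZO scaffolds 149 ± 16.2, Par genes 129 ± 13.9 and MARVEL proteins 72.4 ± 9.42 (SD, n = 4). The connexin sum of 161, 169.5, 398 and 406 RPKM in replicates 1 to 4 lay below the claudin sum in the first pair of libraries and above it in the last pair. The claudin sum was 441, 411, 373 and 382 RPKM, lower in replicates 3 and 4 as deposited, but after median ratio scaling it was 397 ± 3.06 (SD, n = 4), with hardly any difference between libraries.

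**Figure D4:**
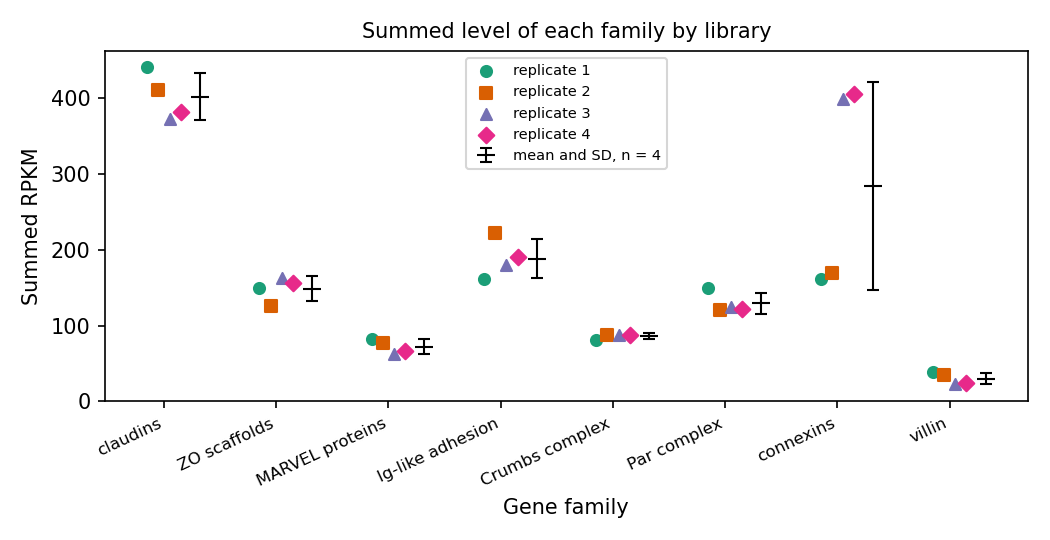
Summed RPKM of each gene family on a linear axis from 0, per library (coloured symbols) and as mean with SD over 4 libraries (black). The connexin libraries form 2 distant pairs, at 161 and 169.5 against 398 and 406 RPKM.

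Of the 30 members with a mean of at least 1 RPKM, 10 were higher in both of replicates 3 and 4 than in replicates 1 and 2, and 15 were lower in both. The shares were 33.3% and 50.0%, against 29.7% and 41.2% of the 11967 genes at that level. The typical gene was lower in replicates 3 and 4 by 0.16 on the log2 scale, and after median ratio scaling the members divided 13 higher to 10 lower (43.3% and 33.3%, against 38.5% and 33.4% of all genes). Ocln, Marveld1, Marveld2, Pard6b and Cldn12 then overlapped between the library pairs, and Cldn3, Crb3 and Pard3 became higher in replicates 3 and 4, whereas Gjb1, Gjd2, Cldn7 and Tjp3 stayed higher and Cldn1, Cldn4, Tjp1 and Cxadr lower.

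The median SD of these members in log2(RPKM + 1) was 0.363, against 0.319 for all genes of that level. The largest ratios of highest to lowest library were those of Gja1 (22.2), Gjd2 (17.8) and Jam2 (8.12). Across all genes of that level the difference between these library pairs correlated with the GC content of the transcript (Spearman 0.57, n = 11542) and with its length (Spearman -0.251), and across the 30 members with GC at 0.179 and with length at -0.369. Genes are not independent replicates, and the part of base composition in any single difference was not tested.

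**Figure D5:**
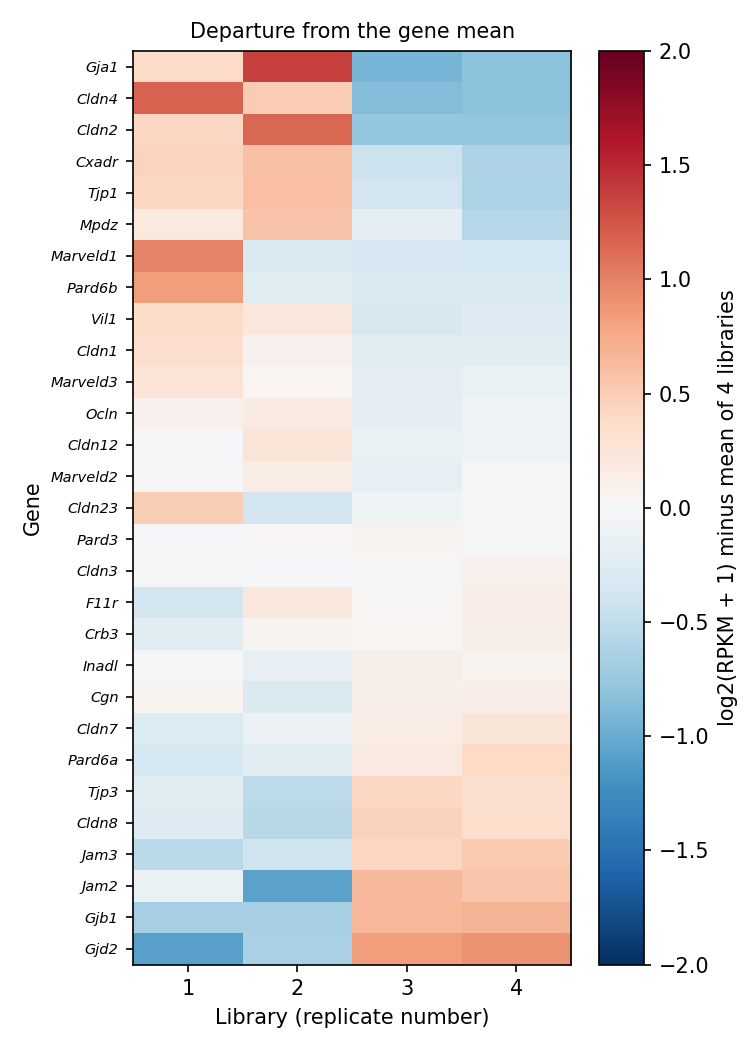
Departure of each library from the gene's mean, in log2(RPKM + 1), for 29 of the 30 members with a mean of at least 1 RPKM, ordered by replicates 3 and 4 (red above the mean, blue below). Gja1, Cldn4 and Cldn2 at the top are lowest in replicates 3 and 4, and Gjb1 and Gjd2 at the bottom are highest there.

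Counts in the partner lists stand beside 65.0% of all genes tested above 1 RPKM and 26.1% below. Of 18 genes of adherens junctions and desmosomes, 17 lay above 1 RPKM, led by Ctnnb1, beta-catenin, with 722 ± 118 RPKM, its partner Ctnna1 with 207 ± 7.58 RPKM and Epcam, an epithelial adhesion protein, with 202 ± 33.7 RPKM (SD, n = 4). Cdh2, neural cadherin, lay below it (limma, adjusted p = 0.0153). Of 22 other polarity and junction scaffolds, 18 lay above 1 RPKM and 1 below, led by Cdc42, a small GTPase that acts on the Par complex, with 181 to 219 RPKM, Dlg1, a scaffold of the basolateral Scribble module, with 105 ± 13.2 RPKM and Stk11, a polarity kinase, with 56.8 ± 8.28 RPKM. Among 8 angulins and other junction membrane proteins 5 lay above, 2 passed in neither direction and 1, Cldnd2, was at 0 throughout and not tested. The list was led by Igsf5, an adhesion protein of tight junctions, with 106 ± 22.7 RPKM, Lsr, the angulin that recruits tricellulin, with 103 ± 27.3 RPKM and Cldnd1 with 27.9 ± 5.57 RPKM.

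Of 14 transcription factors known to act on junction genes, 11 lay above 1 RPKM and 2 below, against 65.0% and 26.1% of all genes tested. Grhl1, of the grainyhead family, stood at 57.8 ± 11.9 RPKM, Elf3, an epithelial Ets factor, at 38.8 ± 5.14 RPKM and Grhl3 at 16.4 ± 3.94 RPKM (SD, n = 4). Among the repressors of epithelial junction genes, Snai1 and Snai2 lay below 1 RPKM (means of 0.25 and 0.115 RPKM; limma, adjusted p = 1.44e-05 and 3.42e-05) and Zeb2 was called in neither direction. Zeb1 lay above 1 RPKM at 6.67, 4.55, 1.61 and 1.37 RPKM (limma, adjusted p = 0.0313) and was higher in replicates 1 and 2.

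These repressors are known to bind the box CACCTG. It was searched on both strands, as CACCTG and CAGGTG, in the 250 bases upstream of RefSeq gene starts (GRCm38.p6, a later build than that of the deposited table), where 47 of the 65 members had an entry. The box was in 17 of 67 member windows (25.4%) and in 17.2% of all 32851 windows, and a match is a description of the letters, not a site. The windows of 3 members are shown because Crb3 holds the box 3 times, as do windows of Gja3 and Pard3, and because Cldn4 and Gjd2 differed between the library pairs in opposite directions. Capitals mark the box, each sequence runs 5′ to 3′ on the gene's strand and ends at the base before the start.
Cldn4, chr5:134946935-134947184, minus strand: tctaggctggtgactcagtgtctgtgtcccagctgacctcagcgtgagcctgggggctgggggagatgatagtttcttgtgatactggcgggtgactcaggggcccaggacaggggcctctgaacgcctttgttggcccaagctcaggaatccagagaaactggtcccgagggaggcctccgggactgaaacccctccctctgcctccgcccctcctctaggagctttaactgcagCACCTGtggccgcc
Crb3, chr17:57061951-57062200, plus strand: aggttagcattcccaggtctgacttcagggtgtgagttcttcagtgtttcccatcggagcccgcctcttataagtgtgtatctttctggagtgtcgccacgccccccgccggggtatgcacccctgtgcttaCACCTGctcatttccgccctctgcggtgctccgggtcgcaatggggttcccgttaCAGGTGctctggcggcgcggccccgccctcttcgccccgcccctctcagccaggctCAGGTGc
Gjd2, chr2:114013620-114013869, minus strand: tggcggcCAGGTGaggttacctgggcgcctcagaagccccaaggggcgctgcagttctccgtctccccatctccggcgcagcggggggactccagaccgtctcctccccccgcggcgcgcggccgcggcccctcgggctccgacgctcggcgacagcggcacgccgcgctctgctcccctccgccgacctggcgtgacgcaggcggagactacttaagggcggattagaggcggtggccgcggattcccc

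The spans of Vil1, Tjp3, Cldn20 and Crb2 overlap Usp37, Apba3, Tfb1m and Dennd1a, respectively, on the opposite strand. The strand setting of the counting is not given in the sources used here, so their reads may not be told apart where exons overlap. Apba3 was at 35.6, 32.7, 46.2 and 46.7 RPKM, with the same order of library pairs as Tjp3. The treatment of reads that match several related claudins or connexins is not given either.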

How the data were processed

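RNA was sequenced from sorted rGBC2 cells in 4 libraries. The authors deposited 1 table of RPKM values with 2 decimals, 1 RefSeq transcript per gene symbol. CASAVA 1.8.2, Bowtie and the build mm9 were used, per the submitters' processing notes, and the counting program is not given in the sources used here. A further 6 columns of values could not be tied to any sample by name and were not used.

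The members, partner lists, marker lists and pairs were chosen with earlier results of these data known. The test used log2(RPKM + 1), which understates differences of low genes, in limma 3.58.1 (R 4.3.3) with a mean-variance trend. It was two-sided, with Benjamini-Hochberg adjustment and a threshold of 0.05. It was also run on simulated data with independent libraries, which do not cover the likeness of replicates 3 and 4. Values in every library are given for the 3 marker genes Cldn4, Cldn7 and Gjd2, the genes of the 10 pairs, the 3 most abundant members of each family and the 3 with the largest ratio of highest to lowest library. Some genes that enter the counts are not reported here by name. Marker genes of other cell types and Cldn10 are also given by library, chosen after their values were seen. For each partner list the 3 most abundant genes are named, and further genes of these lists were picked after their values were seen. Depth was estimated from whole-read steps of 981 olfactory receptor genes, and 3 reads on 1 kilobase then equal 0.0915 to 0.136 RPKM, which covers counting error only. Transcript lengths and GC came from GENCODE by RefSeq identifier (63 of 65 members). Alternatives were other pseudocounts, filters, median ratio scaling, no trend and leaving out each library, and averaging replicates 3 and 4, which was chosen after seeing the data.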

Additional observations from a re-analysis of the deposited data

Results flagged for a closer look

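A value that stood apart from the other 3 libraries was looked for in 37 series of 4 values, the 30 members with a mean of at least 1 RPKM and 7 family sums, and chance flags about 1 in 20 such series. It was found in 5. Marveld1 was at 11.8 RPKM in replicate 1, with a gap to the next library of 0.954 of the whole range. Pard6b was at 61.6 RPKM in replicate 1, with a gap of 0.951 of the range, and the sum of the Par complex, which contains it, was at 150 RPKM there (0.861). The sum of the Crumbs complex was lowest in replicate 1 at 80.5 RPKM (0.9). Cldn3 was highest in replicate 4 at 59.9 RPKM (0.878), within a range that spans only 1.09-fold.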

How the results depend on the processing

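The number of members above 1 RPKM was 26 or 27 under every alternative run. The number below was 25 and became 12 when only genes with a mean of at least 0.1 RPKM were tested, 11 of them among the 25, since that filter removes low genes. It was 21 to 25 when 1 library was left out. Over all genes the number below was 1889 with that filter and 7777 with every gene included, against 4423. Against 1 RPKM, Gja1 (0.24 on the log2 scale) ranged from -0.22 to 0.55 and Pard6g (-0.03) from -0.09 to 0.11 when 1 library was left out, both turning without replicate 2, and neither passed the threshold. The difference of Gjd2 from Gja1 was -0.47 to 0.79 when 1 library was left out and -0.46 with replicates 3 and 4 averaged, and the cause was not tested. The other 9 pairs kept their direction, but the size of a gap to a low gene depends on the pseudocount: with 0.1 RPKM, Crb3 minus Crb2 moved from 5.28 to 7.77, Pard3 minus Pard3b from 5.99 to 7.75 and Gjd2 minus Gjb1 from -6.61 to -7.54. The SDs of these gaps rose from 0.13 to 0.42, from 0.18 to 0.57 and from 0.29 to 1.07, respectively. The family sums moved by less than 1 SD. No comparison between groups, paired or not, was possible because there is only 1 group. The pairs of genes were compared within each library. Depth limits 11 members with under 3 estimated reads in every library, whose presence was not detectable.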
